A study of Saccharomyces cerevisiae with 6 samples.

Results

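The small subunit of the cytosolic ribosome of budding yeast is built from 1 ribosomal RNA and a set of proteins encoded by the RPS genes, and the levels of these transcripts were compared between yeast cells without CBC2 and wild-type cells. The genes were chosen by name alone: every gene whose probe set carries 1 gene symbol in the platform annotation, with that symbol starting with RPS and a digit. This gave 33 genes, read by 47 probe sets, of the 5656 genes named in this way on the array. A further 22 RPS genes are read only by probe sets that name several genes, nearly identical copies as a rule, and were not counted among the 33. The 33 genes belong to 20 families, of which 13 were measured in both copies, and 7 genes have a single copy in the genome.

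RNA was hybridised to Affymetrix Yeast Genome S98 arrays, which read each transcript with sets of short probes called probe sets. The strain without CBC2 (cbc2Δ, Y2685) was measured on 3 arrays and the isogenic wild-type strain (Y255) on 3 arrays. Both strains were grown at 30 °C in SC medium, a defined yeast medium, to log phase at an OD600 of 1, and total RNA was taken. Further genotype of the strains is not given in the labels, nor whether the repeats were separate cultures, so the p-values cover only the spread seen among these samples, which may be technical.

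CBC2 encodes the smaller partner in the nuclear cap-binding complex, a pair of proteins that binds the cap of new RNA polymerase II transcripts and takes part in splicing and export. Small-subunit proteins help the ribosomal RNA to fold into a head and a body, between which the messenger RNA is held and its codons are read. In growing yeast their genes are among the most strongly transcribed, they are switched on together by the factors Rap1, Fhl1, Ifh1 and Sfp1, and most are duplicated. Many carry an intron, although few yeast genes do, and ribosomal protein transcripts make up a large part of all splicing in the cell. These statements are background and were not measured here.

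Values below are quantile-normalised intensities, which have no absolute unit and are comparable between arrays for 1 probe set, not between probe sets. Log2 changes are deletion minus wild type, and a gene was said to rise or fall where the adjusted p of limma over all 6956 tested probe sets was under 0.05. Total messenger RNA per cell cannot be read from such values. CBC2 (YPL178W) did not exceed the floor of 8.35 on any of the 3 deletion arrays, against 882, 840 and 763 on the wild-type arrays, at least 99.0-fold lower (log2 change -6.63, adjusted p = 1.19e-08). Over all probe sets other than controls, arrays correlated at 0.980 to 0.988 within a strain and at 0.951 to 0.969 between strains. Run information filed with the arrays put wild-type replicates 1 and 2 on fluidics station 1 and the other 4 arrays on station 2, and deletion replicate 2 was scanned on another day than the rest.

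In the deletion strain 23 of the 33 small-subunit genes rose, 1 fell and 9 did not pass the test. Of all 5257 genes tested, 16.3% were called higher in the deletion strain and 16.3% lower, set beside 69.7% of small-subunit genes called higher. The median log2 change of the 33 genes was 0.73, against 0.00375 for all genes tested, and 32 of the 33 changes were positive. Every one of the 33 passed the filter on dim probe sets. Strains separated without overlap for 26 genes that were higher and 1 that was lower in the deletion strain. Of all genes tested 24.0% were higher and 25.7% lower without overlap (49.8% in either direction). On deletion replicates 1, 2 and 3 the median member lay 0.88, 0.70 and 0.72 above its own wild-type mean on the log2 scale, while wild-type replicates 1, 2 and 3 lay at 0.05, -0.11 and 0.08. Each of the deletion arrays had 30 of the 33 genes above all wild-type values.

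Arrays washed on the same station gave a similar shift with fewer calls. Within station 2, where wild-type replicate 3 is the single wild-type array and is assumed to vary like the others, the median change was 0.65, with 29 genes higher than the lone wild-type value on all 3 deletion arrays and 1 lower. A single wild-type array makes such separation easier, and of all genes 36.3% were higher and 36.8% lower in this sense. Within station 2, 11 small-subunit genes rose and 1 fell, where 5.54% of all genes were called higher and 4.66% lower. With the station as a block 9 rose (RPS7A, RPS7B, RPS9A, RPS9B, RPS28A, RPS15, RPS10A, RPS1B and RPS3) and RPS22B fell, while the count of called probe sets was 675 instead of 2187 (31.4% of those tested). In that fit 4.98% of all genes were called higher and 4.77% lower. On the scale as deposited, where the median of all genes was -0.25, the small-subunit median was 0.74 and 14 genes rose, against 2.30% of all genes called higher.

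**Figure D1:**
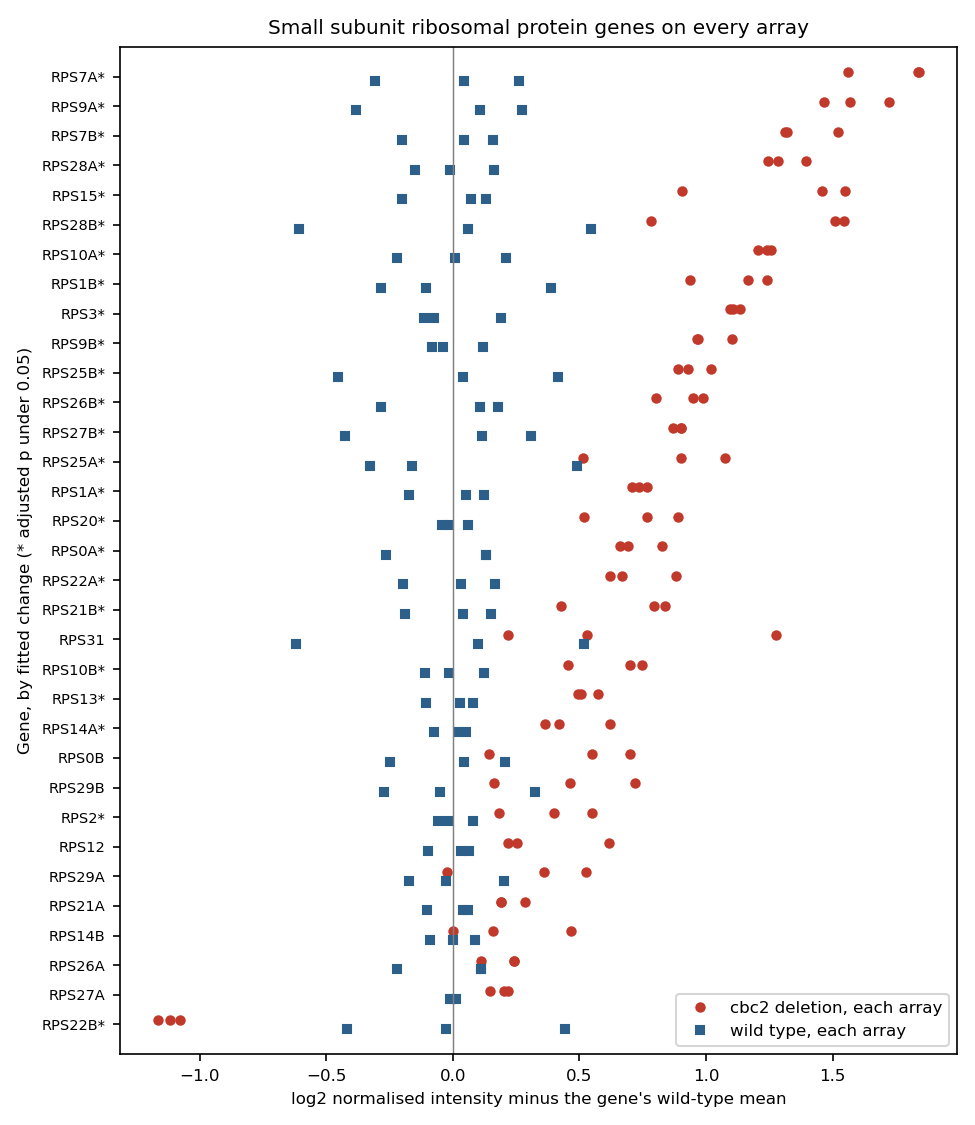
Log2 normalised intensity of each of the 33 small-subunit genes on each array, minus the gene's mean on the 3 wild-type arrays; circles are deletion arrays, squares wild-type arrays, and genes run down the page from the largest fitted rise to the only fall. Deletion values lie right of all wild-type values for 26 genes and left of them for RPS22B.

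**Figure D2:**
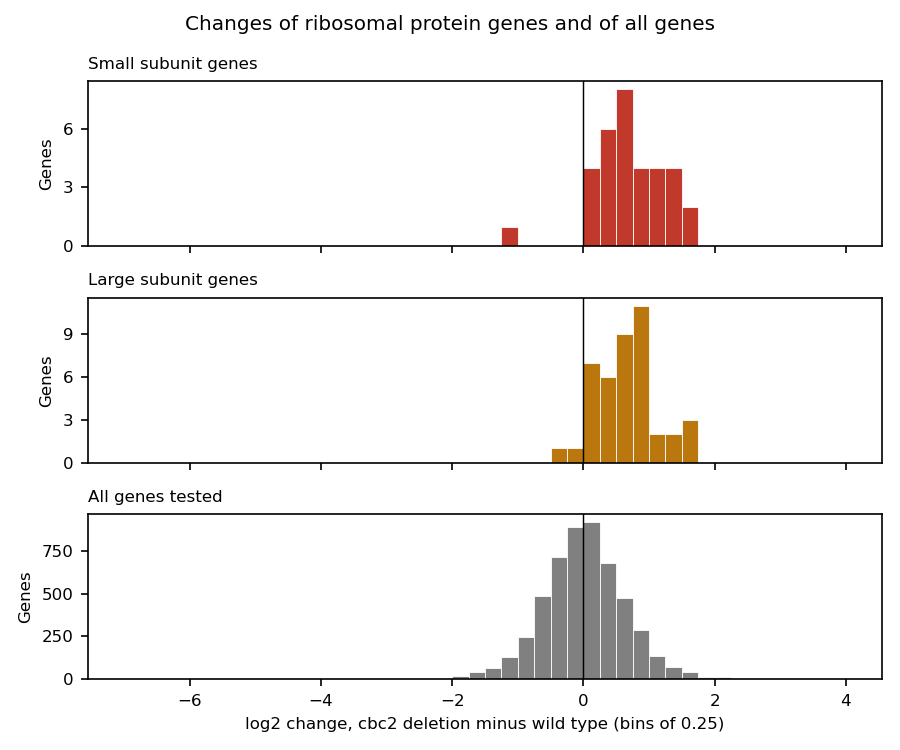
Number of genes per bin of log2 change (deletion minus wild type) for 33 small-subunit genes, 42 large-subunit genes and all 5257 genes tested. The first group spans -1.12 to 1.75 with a median of 0.73, the second has a median of 0.66, and all genes centre on 0.00375.

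The largest fitted rises were those of RPS7A, RPS9A and RPS7B, which encode proteins of the body of the subunit. RPS7A (YOR096W), whose protein is needed to assemble the small subunit, read 5199, 4282 and 5181 on the deletion arrays, against 1740, 1496 and 1173 on the wild-type arrays. No deletion value came near a wild-type one, and the gene rose 3.35-fold (log2 change 1.75, SE 0.17, adjusted p = 0.000202). A second suffix-free probe set of RPS7A rose by 1.61 on the log2 scale. Its copy RPS7B (YNL096C) read 2078, 2068 and 2387 in the deletion strain, against 928, 725 and 858 in the wild type. This was again a clear separation, with a 2.61-fold rise (log2 change 1.38, SE 0.15, adjusted p = 0.000294), and its second probe set rose by 1.40.

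RPS9A and RPS9B encode a body protein that affects the accuracy of decoding. RPS9A (YPL081W) read 1449, 1554 and 1729 in the deletion strain, against 564, 402 and 633 in the wild type (log2 change 1.59, SE 0.19, adjusted p = 0.000416). RPS9B (YBR189W) read 4418, 4029 and 4015, against 2004, 1946 and 2236 in the wild type (log2 change 1.01, SE 0.13, adjusted p = 0.000533). All deletion values of both genes lay above all their wild-type values. Both are read by probe sets with a letter suffix, Affymetrix's mark for a set that did not meet its usual rules for unique probes, so that each may include signal of the other copy. RPS1B (YML063W), of the platform on the body, read 3612, 4231 and 4458 in the deletion strain, against 2468, 1751 and 1548 in the wild type (log2 change 1.12, SE 0.18, adjusted p = 0.00197). It is read by a suffixed probe set too, and its lowest deletion value exceeded the highest wild-type value.

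Among genes for head proteins, RPS28A, RPS15, RPS28B, RPS10A and RPS3 had the largest called rises. Of these, RPS28A, RPS28B and RPS10A are read by suffixed probe sets. RPS28A (YOR167C) encodes a small protein near the path by which messenger RNA leaves the ribosome, and read 4247, 3935 and 3825 in the deletion strain, against 1599, 1455 and 1804 in the wild type (log2 change 1.31, SE 0.14, adjusted p = 0.000243). RPS28B (YLR264W), whose protein is known to bind its own transcript and promote its decay, read 2371, 2314 and 1401, against 847, 534 and 1189 in the wild type (log2 change 1.28, SE 0.29, adjusted p = 0.00976). The third deletion array was closer to the wild type than the other two for RPS28B. With the station as a block its change was 0.73 (adjusted p = 0.219), and on the table without the filter on dim probe sets the adjusted p was 0.0743.

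RPS15 (YOL040C), a single-copy gene whose protein is required for export of the new subunit from the nucleus, read 5880, 6271 and 4008 in the deletion strain, against 1863, 2249 and 2342 in the wild type (log2 change 1.30, SE 0.18, adjusted p = 0.000907). RPS10A (YOR293W), of the head, read 3443, 3323 and 3405, against 1668, 1451 and 1239 in the wild type (log2 change 1.23, SE 0.15, adjusted p = 0.000379). RPS3 (YNL178W), also single-copy, encodes a protein at the channel where messenger RNA enters. It read 9094, 9280 and 9005 in the deletion strain, against 4812, 3902 and 4008 in the wild type, a 2.16-fold rise (log2 change 1.11, SE 0.12, adjusted p = 0.000279). The deletion arrays differed little from each other for RPS3 and RPS10A and did not overlap with the wild type for any of these 3 genes.

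**Figure D3:**
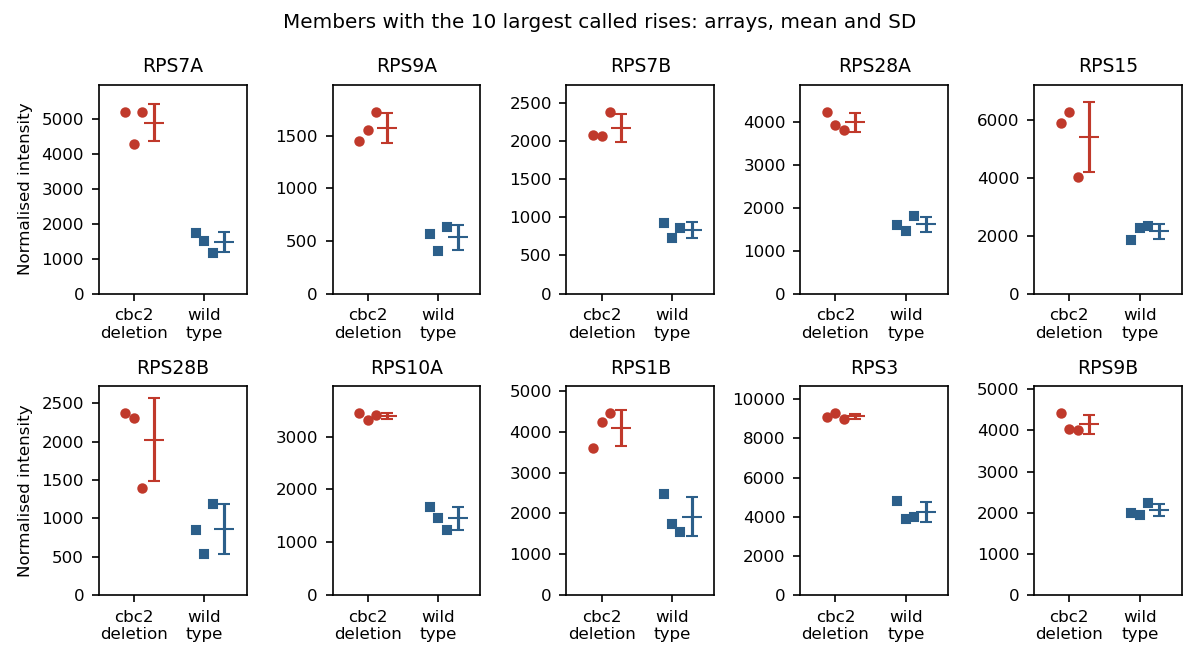
Normalised intensity on each array (points) with mean and SD over 3 arrays (bars) for the 10 small-subunit genes with the largest called rises, deletion strain left of wild type, each panel on its own axis starting at 0. In all 10 panels every deletion point lies above every wild-type point, with RPS28B the closest to overlap.

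Together 10 of the 33 genes had a called rise of at least 2-fold, against 5.36% of all genes tested. The other 13 genes that rose did so by 0.38 to 0.95 on the log2 scale. Among the single-copy genes, RPS20 (YHL015W), a head protein that is ubiquitinated on stalled ribosomes, read 3356, 2594 and 3083 in the deletion strain, against 1789, 1884 and 1757 in the wild type (log2 change 0.73, SE 0.14, adjusted p = 0.00443). RPS13 (YDR064W), a body protein that binds early to the ribosomal RNA, read 5507, 5253 and 5211, against 3768, 3434 and 3902 in the wild type (log2 change 0.53, SE 0.12, adjusted p = 0.00821). RPS2 (YGL123W), whose protein lies by the entry channel and affects decoding accuracy, read 6525, 5880 and 5068, against 4288, 4711 and 4398 in the wild type (log2 change 0.38, SE 0.13, adjusted p = 0.0491). Strains did not overlap for these 3 genes. On the deposited scale none of them was called (RPS20 adjusted p = 0.191, RPS13 adjusted p = 0.181, RPS2 adjusted p = 0.321). The RPS2 call was lost when any array other than deletion replicate 3 was left out (log2 changes 0.29 to 0.46 over all 6 omissions, adjusted p up to 0.165). RPS14A and RPS25A, singled out for this after their values were seen, lost their calls in 5 and 3 of the 6 omissions: RPS14A with any array left out but deletion replicate 2 (adjusted p up to 0.0722), and RPS25A without deletion replicate 1, deletion replicate 3 or wild-type replicate 3 (adjusted p up to 0.0735).

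The 9 genes that did not pass the test had log2 changes of 0.19 to 0.67, all positive. RPS31 (YLR167W), made as a fusion with ubiquitin, read 5224, 3108 and 2504 in the deletion strain, against 2310, 1401 and 3087 in the wild type (log2 change 0.67, 95% interval -0.02 to 1.37, adjusted p = 0.126). Its arrays overlapped, and its SE of 0.31 was the largest of the 33 genes. RPS12 (YOR369C), of the part of the head called the beak, read 5574, 5702 and 7336, against 4899, 4476 and 5011 in the wild type (log2 change 0.36, 95% interval 0.06 to 0.67, adjusted p = 0.0686), without overlap. The other 7, named after their values were seen, were RPS0B, RPS14B, RPS21A, RPS26A, RPS27A, RPS29A and RPS29B. For RPS0B the suffix-free probe set was not called (0.46, adjusted p = 0.0659), while its second, suffixed probe set rose by 0.86 (adjusted p = 0.00548). With the arrays scaled to one median in place of quantile normalisation, 30 of the 33 genes rose (19.6% of all genes were called higher), RPS31 and RPS12 among them (log2 changes 0.98 and 0.82), and the small-subunit median was 1.06, or 0.99 above that of all genes.

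Paralogue pairs were compared next, by the difference between the changes of copy A and copy B. The difference was fitted with limma over all 33 pairs of yeast genes tested whose symbols differ only in a final A or B. Of these 7 (21.2%) were called. The 33 were mostly ribosomal protein pairs: 13 of the small subunit, 16 of the large subunit (3 called) and 4 others. Among the 13 small-subunit pairs 3 were called: RPS22, RPS26 and RPS27. An exact two-sided permutation test over the 6 arrays cannot give a p below 0.1 for a single pair. It gave 0.1 for each of these 3, and also for RPS10, RPS9, RPS21, RPS7 and RPS14, which were not called.

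RPS22 stood apart from the other pairs in direction. Its 2 copies encode nearly identical proteins of the body (a family conserved from bacteria), and RPS22A (YJL190C) read 12858, 11089 and 10705 in the deletion strain, against 7120, 6082 and 7823 in the wild type (log2 change 0.72, SE 0.13, adjusted p = 0.0029). RPS22B (YLR367W) read 87.8, 90.3 and 85.0 in the deletion strain, against 187, 143 and 259 in the wild type (log2 change -1.12, SE 0.22, adjusted p = 0.00493). RPS22A was higher and RPS22B lower on every deletion array than on any wild-type array. RPS22B was the one small-subunit gene that fell, and the changes of the copies differed by 1.84 on the log2 scale (A minus B, SE 0.18, 95% interval 1.43 to 2.26, adjusted p = 0.000193). With the station as a block the RPS22A call was lost (0.56, adjusted p = 0.0812), while the difference between the copies was 2.12 (adjusted p = 0.000388). As background, the RPS22B precursor RNA has introns, one of which is a known cutting site of the RNase III enzyme Rnt1, and RPS22A has none in its coding region.

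The fall of RPS22B rested on 1 of its 3 probe sets, the dim one without a suffix. The probe set with suffix i read 828, 1105 and 923 in the deletion strain, against 1134, 671 and 1170 in the wild type (log2 change -0.03, 95% interval -0.53 to 0.48, adjusted p = 0.948). The probe set with suffix f read 771, 816 and 828, against 906, 734 and 1106 in the wild type (log2 change -0.17, 95% interval -0.56 to 0.22, adjusted p = 0.503). Both overlapped between strains, and neither showed the rise seen for RPS22A. Which part of the transcript each probe set reads, and how far the suffixed ones take up RPS22A signal, was not tested. With the 3 probe sets averaged the change of RPS22B was -0.44 (adjusted p = 0.121), and the difference between the copies remained called (1.16, adjusted p = 0.00173).

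**Figure D4:**
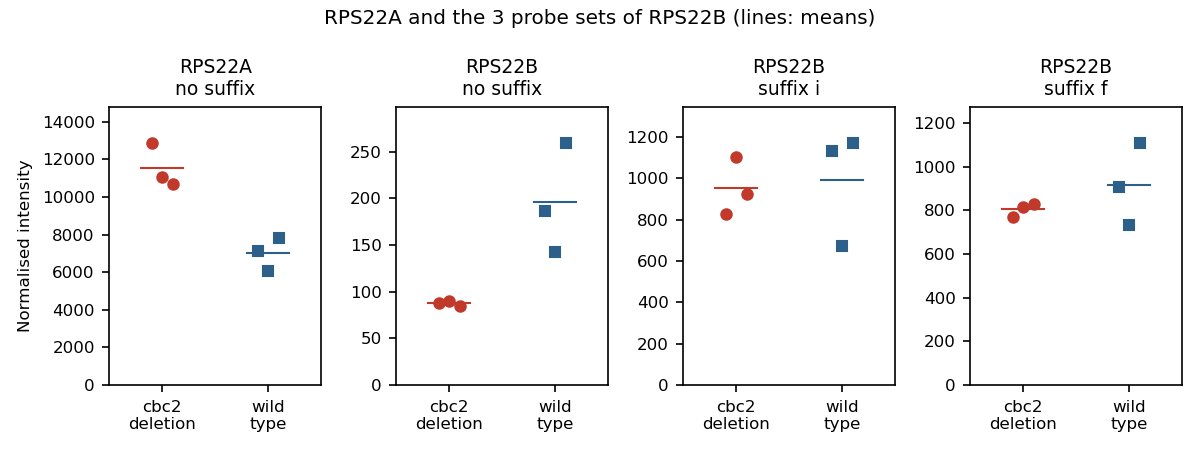
Normalised intensity on each array for the RPS22A probe set and the 3 RPS22B probe sets, deletion strain left of wild type, lines at the means, each panel on its own axis starting at 0. The deletion arrays lie above the wild type for RPS22A and below it for the suffix-free RPS22B set at 85.0 to 90.3, while both suffixed RPS22B sets overlap between strains.

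RPS26 and RPS27 differed in size of change, with copy B the one called higher on the probe sets compared. RPS26 proteins sit at the exit of the messenger RNA channel. RPS26A (YGL189C) read 10943, 11968 and 11968 in the deletion strain, against 10943, 8692 and 10943 in the wild type (log2 change 0.20, 95% interval -0.07 to 0.47). The repeated values come from quantile normalisation, which gives equal ranks the same value. As deposited, RPS26A read 12346, 12448 and 11426, against 10918, 9527 and 9234 in the wild type. With scaling to one median its change was 0.62 (adjusted p = 0.0651). RPS26B (YER131W) read 704, 620 and 685, against 382, 291 and 402 in the wild type (log2 change 0.91, SE 0.17, adjusted p = 0.0039). The RPS26B arrays separated by strain and those of this RPS26A probe set did not, and the changes differed by -0.72 (A minus B, SE 0.15, adjusted p = 0.0125). RPS26A is read by suffixed probe sets, another of which rose by 0.36 (adjusted p = 0.0434). On the deposited scale and with scaling to one median the difference was -0.39 and was not called (adjusted p = 0.2 in both). On the deposited scale RPS26B itself was not called (0.68, adjusted p = 0.284). With the station as a block neither RPS26B (0.74, adjusted p = 0.0877) nor the difference (-0.65, adjusted p = 0.0711) was called, and with a replicate block the difference was not called either (adjusted p = 0.0593).

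RPS27 encodes a zinc-binding protein of the body, and both copies have a suffix-free probe set. RPS27A (YKL156W) read 2594, 2563 and 2466 in the deletion strain, against 2249, 2210 and 2224 in the wild type (log2 change 0.19, 95% interval -0.08 to 0.46, adjusted p = 0.264). Its arrays did not overlap, though the shift was small. RPS27B (YHR021C) read 6213, 6082 and 6213, against 4126, 2480 and 3599 in the wild type (log2 change 0.89, SE 0.18, adjusted p = 0.00497). The changes differed by -0.70 (A minus B, SE 0.20, adjusted p = 0.0394), a call lost without any one of deletion replicates 1, 2 and 3 or wild-type replicate 2 (differences -0.50 to -0.86 over the 6 omissions, adjusted p up to 0.0778). With the station as a block RPS27B was at 0.78 (adjusted p = 0.095) and the difference at -0.59 (adjusted p = 0.195).

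In the other 10 small-subunit pairs the difference did not pass the test. RPS10 and RPS9, with copy A ahead by 0.60 and 0.58, had an adjusted p of 0.0504 each, and RPS21, with copy B ahead by 0.46, of 0.0569. For these 3 pairs the per-array differences did not overlap between strains, and all 6 genes are read by suffixed probe sets. The RPS7 pair, both copies of which rose, differed by 0.36 (95% interval -0.09 to 0.81), and RPS14 by 0.26 (95% interval -0.07 to 0.59). Both of these pairs are read by suffix-free probe sets, and their per-array differences did not overlap between strains either. RPS28 had nearly equal changes in its copies (difference 0.03, 95% interval -0.58 to 0.64), an interval that leaves room for a difference of the size seen in other pairs. Both RPS28 copies are read by suffixed probe sets, so each may include signal of the other, which would lower the measured difference.

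**Figure D5:**
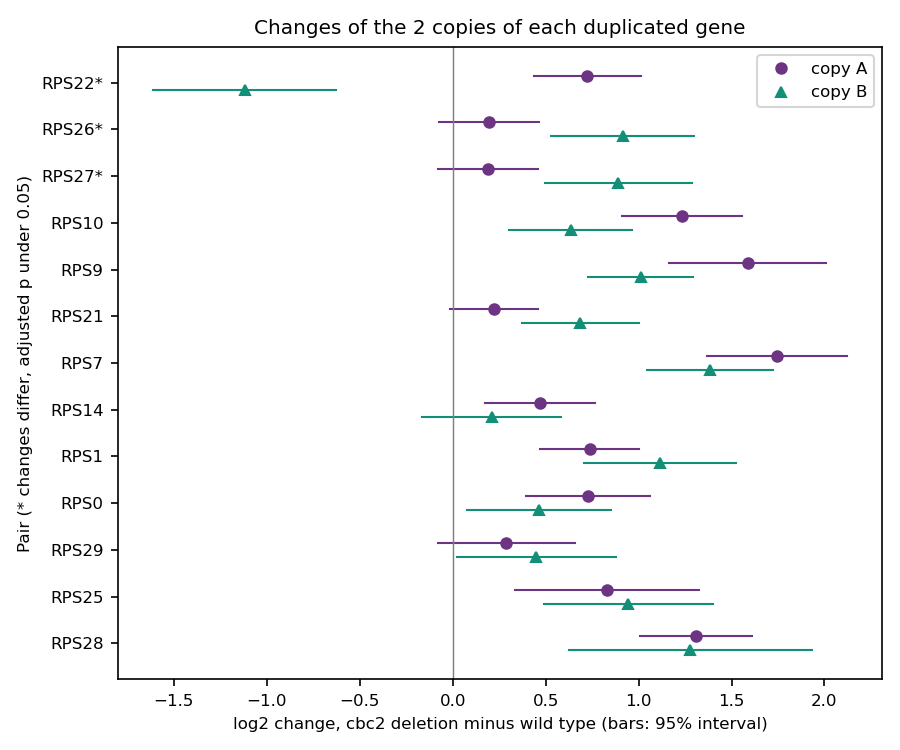
Log2 change (deletion minus wild type) with its 95% interval for copy A (circles) and copy B (triangles) of the 13 small-subunit pairs, from the smallest p of the difference at the top. RPS22A at 0.72 and RPS22B at -1.12 lie on opposite sides of 0. The copies of RPS28 at 1.31 and 1.28, both read by suffixed probe sets, nearly coincide.

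The 33 genes were also split by features that their choice did not use. Of 13 head genes 9 rose and none fell (median 0.83), and of 20 genes of the body and platform 14 rose and 1 fell (median 0.71). By a list of intron-containing genes written by hand, 11 of 16 genes with an intron in the coding region rose and 1 fell (median 0.66), against 12 of 17 genes without one, of which none fell (median 0.74). The medians with and without an intron were 0.50 and 0.73 on suffix-free probe sets, and 0.61 and 0.83 with scan day as a block. Of 7 single-copy genes 5 rose (median 0.67), and of 26 genes from duplicated families 18 rose and 1 fell (median 0.73). With suffix-free probe sets alone 12 of 18 genes rose and 1 fell (median 0.70), against 11 of 15 genes read by suffixed ones (median 0.83). These splits are descriptions, and no difference between them was tested.

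Probe sets that name several small-subunit genes were left out of the counts above. Of 21 such sets 13 rose, none fell and 8 did not pass the test (median 0.50), while 15.2% of all tested probe sets were called higher and 16.2% lower. One of the 2 sets shared by RPS30A and RPS30B was at -0.19 (adjusted p = 0.404), without a call. The set shared by RPS19A and RPS19B, singled out once values were known, rose by 1.62 (adjusted p = 0.000229). RPS14B and RPS22A are neighbours in the genome and were read at 0.21 (95% interval -0.16 to 0.58, adjusted p = 0.368) and 0.72 on the log2 scale.

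Large-subunit genes gave a similar picture, with 28 of 42 rising, none falling and a median of 0.66, while 16.3% of all genes were called higher. RPL38 rose by 1.57, RPL36B by 1.49, RPL16B by 1.29 and RPL32 by 0.97. Of the small subunit's partners, ASC1, whose protein is a scaffold on the head, read 7247, 7740 and 6639 in the deletion strain, against 5224, 4584 and 5574 in the wild type, and rose by 0.49 (SE 0.12, adjusted p = 0.0142). STM1, whose protein clamps the subunits of idle ribosomes together, read 3963, 3302 and 3478, against 1243, 1249 and 1618 in the wild type, and rose by 1.39 (SE 0.15, adjusted p = 0.000294). Neither gene overlapped between strains. The ASC1 call was lost with the station as a block (0.37, adjusted p = 0.203) and on the deposited scale (0.59, adjusted p = 0.197).

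Of 10 regulators of ribosomal protein genes none rose and 3 fell (median -0.04), while 16.3% of all genes were called lower. CRF1, a repressor of these genes under Tor control, read 19.3, 24.3 and 23.1 in the deletion strain, against 70.6, 71.0 and 65.0 in the wild type (log2 change -1.64, SE 0.22, adjusted p = 0.00075). YAK1, a kinase that acts on Crf1, was at -0.58 (adjusted p = 0.02) and the activator SFP1 at -0.68 (adjusted p = 0.0203). The strains did not overlap for CRF1, YAK1 or SFP1. The calls of YAK1 and SFP1 were lost with the station as a block (adjusted p = 0.185 and 0.12) and on the deposited scale (adjusted p = 0.204 and 0.114). SCH9, a kinase that promotes ribosome synthesis, was at 0.47 (adjusted p = 0.126) and was called higher with array weights (0.59, adjusted p = 0.0481). The other 6 regulators were not called.

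Of 14 genes for escort proteins and late assembly factors of the small subunit, limma called none higher or lower (3 higher and none lower at an unadjusted p under 0.05), with a median of 0.37. Among all 5257 genes tested, limma gave 1165 higher and 1191 lower at an unadjusted p under 0.05. TSR1 (0.48, adjusted p = 0.0584), YAR1, the chaperone of Rps3 (0.41, adjusted p = 0.0852), ENP1 (0.63, adjusted p = 0.0879) and FAP7 (0.41, adjusted p = 0.115) had the smallest p. Of the 14 changes 13 were positive, against 2651 of the 5257 for all genes. In the deletion strain 5 of the 14 genes were higher without overlap, against 24.0% of all genes tested. ENP1 was called with a replicate block (adjusted p = 0.0452), and TSR1 with arrays scaled to one median (adjusted p = 0.0457) or the dimmest 50% left out (adjusted p = 0.0474). Of 6 enzymes that modify small-subunit proteins, 2 fell and none rose (median 0.13), while 16.3% of all genes were called lower. The 2 that fell were HMT1, a methyltransferase that acts on Rps2 (-0.68, adjusted p = 0.0114), and TPA1, which hydroxylates Rps23 (-0.52, adjusted p = 0.0252). Neither was called with the station as a block (HMT1 adjusted p = 0.0562, TPA1 adjusted p = 0.158) or on the deposited scale (HMT1 adjusted p = 0.134, TPA1 adjusted p = 0.238). SFM1, the methyltransferase of Rps3, was at 0.36 (adjusted p = 0.244) and YPK3, a kinase of Rps6, at 0.19 (adjusted p = 0.464), and YPK3 was at -0.12 on the deposited scale.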

How the data were processed

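The authors deposited linear intensities, 1 value for each of 9335 probe sets on each array; how these were summarised or scaled is not given in the sources used here. Medians of the deposited intensities ran from 78 to 176.1 between arrays, so intensities were quantile normalised, raised to a floor at the 10th percentile (8.35) and log2 transformed. Controls (60 probe sets) were dropped, as were the dimmest 25% of the remainder. Strains were compared with limma 3.58.1 in R 4.3.3 (lmFit, eBayes with an intensity trend) and Benjamini-Hochberg adjustment over 6956 probe sets. A gene took its brightest suffix-free probe set, or its brightest of any kind where it had no other. Symbols came from the platform annotation, updated through assembly R64. Over tested probe sets the SE had a median of 0.20 (log2); the number of arrays limits the precision, and the scripts were tested on simulated data.

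Named genes were the 10 largest called rises, every fall, the copies of called pairs, RPS22A and RPS22B, the single-copy genes, and up to 4 genes of smallest p per other list. Genes and lists were chosen with earlier results of these data known. Introns came from a list written by hand, as the planned inference from protein lengths could not be made; all 20 unlisted RPS genes have a span divisible by 3. Promoter motifs and sequences were not analysed here. Alternatives were other scalings, floors, filters, variance models, weights, blocks and probe set rules, and leaving out each array.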

Additional observations from a re-analysis of the deposited data

How the results depend on the processing

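All 33 small-subunit genes kept the sign of their change in each of the 24 other settings that tested them. Several settings could not turn a sign, because they left the change of each of these genes the same. These were the filters on dim probe sets, the variance models, the 2-fold requirement, the replicate block, the floor at 20 and the restriction to suffix-free sets. The median of the 33 minus that of all genes stayed between 0.61 and 0.99. In the main setting 23 genes rose, beside 16.3% of all genes called higher. The count was 14 on the deposited scale (2.30% of all genes) and 9 with the fluidics station as a block (4.98% of all genes). By the calls of the main fit it was 12 of 18 with suffix-free probe sets only. After the data had been seen it was also taken within station 2 (11) and with station and scan day together as blocks (7). With station and scan day together as blocks, 390 of the 6956 tested probe sets were called in either direction. Against a 2-fold requirement limma called 0 of the 33 genes higher and 0 lower (4 and 0 at an unadjusted p under 0.05). Only 48 of all tested probe sets were called with that requirement. The 1 fall became 0 with the dimmest 50% left out, which removes RPS22B, and 0 with all probe sets of a gene averaged (0 lower at an unadjusted p under 0.05 in both). Suffix-free sets left 15 of 18 genes without overlap, beside 49.8% of all genes, on probe sets of either kind, in the main setting. The median was 1.06 with arrays scaled to one median (1.02 with an intron, 1.13 without), 0.62 with the station block and 0.60 with both blocks (0.62 without an intron), and 0.50 for intron genes on suffix-free sets; the causes were not tested. Called small-subunit pairs, 3 in the main setting (7 of all 33 yeast pairs), numbered 1 with the 2-fold requirement and 6 with averaged probe sets. Counts over all pairs are not given for the other settings. YPK3 turned to -0.12 on the deposited scale.

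Leaving out 1 array at a time gave 20 to 22 rises, 1 fall, 2 to 4 called pairs and medians of 0.63 to 0.79 (0.59 to 0.70 with an intron, 0.69 to 0.81 without). In these fits 1500 to 1964 probe sets were called in either direction, instead of 2187. Genes without overlap numbered 27 to 29, but separation is easier with fewer arrays, so this count is no check of stability. Replicate numbers are shared by the strains, but same-numbered arrays did not deviate together (correlations -0.23, -0.09 and 0.08). With a replicate block 21 genes rose, 1 fell and 1 small-subunit pair was called, while 1911 of the 6956 tested probe sets were called in either direction.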
